A study of Mus musculus with 14 samples.

Results

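Dopaminergic neurons that lack transferrin receptor 1 were compared between mice of 10 and of 3 weeks, that is, late against early in the course that the study calls neurodegeneration. The comparison used 6 of the series' 14 arrays: the libraries labelled Tfr1-null 10 weeks 1 to 3 and Tfr1-null 3 weeks 2 to 4. These 6 were selected on their labels and on measured Tfrc values, since the library labelled Tfr1-null 3 weeks 1 carries the Tfr1-null genotype in its title but is called a control in another label, and its Tfrc values lie with the controls. Results are given with that library as well wherever it was added.

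Each library holds mRNA that was pulled down with tagged ribosomes (RiboTag), so that transcripts under translation in a chosen cell type are read out of a lysate of fresh ventral midbrain. The Tfr1-null animals were Tfr1ΔDN conditional knockouts, with Tfr1 deleted in dopaminergic neurons. The controls beside them, 3 at 3 weeks and 3 of 4 at 10 weeks, were heterozygous for the Tfr1 allele, so no group is wild type. All mice carried the RiboTag background, and all were F2 animals of 129Sv and C57BL/6. The Cre driver is not named in the sources used here, and the labels do not say whether the libraries of a group came from separate animals or pools. The p-values below therefore measure only the spread between these libraries, which may be technical. No lysate without pulldown was analysed, and in such bulk material fewer cells of a type and less RNA per cell cannot be told apart.

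Iron enters most cells when transferrin, loaded with iron, binds transferrin receptor 1 and is taken up by endocytosis. Dopaminergic neurons of the substantia nigra need iron for tyrosine hydroxylase, which makes the precursor of dopamine, and for the iron-sulfur and heme proteins of the respiratory chain. Neurons whose axons are damaged start a known set of genes, among them the transcription factors Jun, Atf3 and Sox11 and the secreted peptides galanin and neuropeptide Y.

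The values are log2 signals of Affymetrix arrays. The array medians lay between 6.41 and 6.43 in the 3-week Tfr1-null libraries and between 7.36 and 7.43 in the 10-week ones, since the deposited values of the ages had been scaled apart. All arrays were therefore brought to a common distribution by quantile normalization, after which the median age difference over all genes was -0.03 log2 units, against 0.86 in the values as deposited. A signal under 4.93, the 25th percentile of that distribution, is called not above background here. Sex was not balanced over age. By Xist and Y-linked transcripts, 0 of the 3 Tfr1-null libraries at 3 weeks and 3 of the 3 at 10 weeks had a male pattern, as had 1 of 3 controls at 3 weeks and 3 of 3 at 10 weeks. Genes of X inactivation and of the Y chromosome were left out. Age, sex and the separate scaling of the arrays cannot be told apart in the Tfr1-null comparison. Over the 20 genes with the largest age changes, the 1 male control at 3 weeks differed from the mean of the other 2 by a median of 0.193 and by at most 0.81 log2 units. The difference had the sign of the age change in 11 of the 20, with Inhba (0.81) and Npy (0.77) among them. Of 9 genes known to escape X inactivation, 0 were called by limma after Benjamini-Hochberg adjustment. The smallest limma adjusted p was 0.12, for Kdm5c (-0.37, all 10-week values lower), the 1 gene at an unadjusted p under 0.05. These values come from 1 male array of the other genotype and from few genes, and the part of sex was not tested.

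The labelled cell type was seen in its defining transcripts. Th, which encodes tyrosine hydroxylase, gave 13.99 to 14.03 at 3 weeks and 13.73, 13.92 and 13.89 in the 10-week libraries. Slc6a3, the dopamine transporter, gave 13.79 to 13.88 at 3 weeks and 13.52, 13.77 and 13.58 at 10 weeks. All 10-week values of both genes lay below all 3-week values, yet neither difference passed the test. The difference was -0.16 log2 units for Th (SE 0.09, limma adjusted p = 0.26) and -0.21 for Slc6a3 (SE 0.10, limma adjusted p = 0.19). Slc18a2, the vesicular monoamine transporter, and Ddc, the decarboxylase that forms dopamine, overlapped between ages, with differences of 0.06 (SE 0.12) and 0.01 (SE 0.10). Tfrc itself, on its brightest gene probe set, gave 13.38, 13.19 and 13.22 at 3 weeks and 12.60, 12.67 and 12.88 at 10 weeks, against 11.51 to 11.69 and 11.04 to 11.24 in the controls. Its signal in Tfr1-null libraries was above that of controls at both ages, except on the array's 5' control probe set, where they had 7.34 to 8.87 against 9.26 to 10.06. Which exons were deleted is not stated in the labels. The library labelled Tfr1-null 3 weeks 1 had 11.59 and the library labelled control 10 weeks 1 had 12.68, each on the side of the other genotype. Since Tfrc had a part in choosing the libraries, its values are a description without a test.

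Ribosome-bound transcripts of Tfr1-null neurons changed widely with age. Of 18179 genes tested, limma called 2946 (16.2%) at an adjusted p under 0.05, with 1158 (6.37%) higher and 1788 (9.84%) lower at 10 weeks. At least 2-fold changes made up 409 of these, 185 higher and 224 lower. All 10-week libraries lay above all 3-week libraries for 3270 genes (18%) and below them for 4408 (24.2%). Centring each array on its median in place of quantile normalization gave 1175 higher and 3189 lower. With the library labelled Tfr1-null 3 weeks 1 added, 3765 genes were called, 1533 higher and 2232 lower. The median SD of a gene was 0.111 log2 units at 3 weeks and 0.179 at 10 weeks. Without the 3-week library 2, 3 or 4, limma called 515, 521 and 324 genes, and without the 10-week library 1, 2 or 3 it called 2373, 2807 and 2387.

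The 10 largest rises began with genes that respond to nerve damage. Sprr1a encodes a small proline-rich protein of the cornified envelope that injured neurons also make. Its signal was 7.26, 7.98 and 8.45 in the 3-week Tfr1-null libraries and 12.92, 12.83 and 13.30 at 10 weeks, a rise of 5.12 log2 units, or 34.8-fold (SE 0.30, limma adjusted p = 0.0022). The groups were far apart, and every 3-week value was already above the control range of 4.65 to 5.62 at that age. Ecel1, an endothelin-converting enzyme-like protease induced in damaged neurons, gave 7.51, 7.69 and 7.56 at 3 weeks and 11.35, 11.82 and 11.64 at 10 weeks. The rise of 4.02 (SE 0.14, limma adjusted p = 0.0007) set in from a level only slightly above the 3-week controls, which had 6.79 to 7.05. Mmp12, the secreted metalloprotease known as macrophage elastase, gave 7.52, 8.31 and 8.24 at 3 weeks and 11.68, 11.74 and 12.07 at 10 weeks. It rose by 3.81 (SE 0.23, limma adjusted p = 0.0022), while all 6 controls stayed between 2.86 and 3.36, which is not above background. The library labelled Tfr1-null 3 weeks 1 had 3.02 for Mmp12 and 4.97 for Sprr1a, inside the control ranges.

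Secreted peptides and junction proteins followed. Inhba, the subunit of activin A, gave 6.82, 6.93 and 6.81 at 3 weeks and 10.54, 9.29 and 9.43 at 10 weeks. It rose by 2.90 (SE 0.32, limma adjusted p = 0.0076), and 10-week library 1 was the highest. Its 2 probe sets rose by 0.81 and 2.90. Dsp, which encodes desmoplakin of the desmosome, gave 6.06, 6.33 and 7.14 at 3 weeks and 9.35, 9.37 and 8.76 at 10 weeks, a rise of 2.65 (SE 0.31). Its 3 probe sets rose by 0.74 to 4.08. Npy, neuropeptide Y, gave 7.27, 7.72 and 7.45 at 3 weeks and 9.93, 10.14 and 9.85 at 10 weeks, a rise of 2.50 (SE 0.15). In these 3 genes the ages did not overlap, and the 3-week Tfr1-null values did not differ from the 3-week controls at the threshold.

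The other 4 of the 10 were less alike. Bpifc, of the family of bactericidal permeability-increasing proteins, was not above background at 3 weeks and lay at 6.32, 5.70 and 6.41 at 10 weeks. Its rise was at least 1.21 log2 units, taken as the 10-week mean over the limit. The fitted control difference of 0.86 was called too, although no control was above background for Bpifc at either age. Zc3hav1, the zinc-finger antiviral protein, rose by 2.52 (SE 0.18) on its brightest probe set, whereas its 3 probe sets ranged from -0.27 to 2.52. In controls Zc3hav1 rose as well, by 1.11 (limma adjusted p = 0.0082), and the difference between the genotypes' age changes was not called. Aldh3b2, an aldehyde dehydrogenase, gave 7.00, 7.03 and 7.06 at 3 weeks and 8.97, 8.97 and 10.64 at 10 weeks, so that library 3 carried much of its rise of 2.49 (SE 0.44). It missed the threshold without any one of the 3-week libraries, at limma adjusted p between 0.068 and 0.072. Abca8a, a lipid transporter of the ABC family, gave 3.55, 5.46 and 3.54 at 3 weeks and 6.99, 6.42 and 6.69 at 10 weeks, so that 2 of the 3 early values were not above background. The fitted rise of 2.52 (SE 0.52) rests on those dim values, and in controls, which rose too, no 3-week value was above background. It was no longer called without 3-week library 2 or 4 or 10-week library 1 or 3, with limma adjusted p between 0.057 and 0.093.

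The 10 largest falls held genes of several kinds. Aldh1a7, an aldehyde dehydrogenase closely related to Aldh1a1, gave 11.23, 11.29 and 11.40 at 3 weeks and 8.93, 9.45 and 8.69 at 10 weeks. It fell by 2.28 (SE 0.20, limma adjusted p = 0.0051), and since probes may not separate it from Aldh1a1 its identity is uncertain. Aldh1a1 gave 13.49 to 13.61 at 3 weeks and 13.38 to 13.42 at 10 weeks, a difference of -0.16 (SE 0.08) that was not called. Cldn2, a claudin of tight junctions, gave 8.26, 7.79 and 8.28 at 3 weeks and 5.26, 5.87 and 6.21 at 10 weeks. It fell by 2.33 (SE 0.26, limma adjusted p = 0.0076), and the controls of both ages stayed higher, between 9.20 and 9.88. Its 2 probe sets differed by -2.33 and -0.57. Steap4, a reductase that can reduce iron, gave 6.34, 6.27 and 6.35 at 3 weeks on its brightest probe set. At 10 weeks it was not above background there, at least 1.39 log2 units lower. Its 2 probe sets had fitted differences of -2.02 and -0.76. In controls Steap4 fell from 7.56, 7.68 and 7.59 to 6.89, 6.22 and 7.01.

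Cdca8, the chromosomal passenger protein borealin, gave 9.90, 9.79 and 9.47 at 3 weeks and 7.26, 7.58 and 7.29 at 10 weeks. Its 3 probe sets fell by between 0.06 and 2.36. Gpr17, a receptor of maturing oligodendrocyte precursors, gave 9.02, 8.69 and 8.37 at 3 weeks and 6.85, 6.73 and 6.74 at 10 weeks, and fell by 1.92 (SE 0.17). Otor, Tcfl5 and Zfp389 were not above background at 10 weeks, and their falls were at least 0.55, 1.29 and 1.17 log2 units. Dusp23, a phosphatase, fell by 2.06 (SE 0.28), and Gdf10, a bone morphogenetic protein, by 1.83 (SE 0.29). Gdf10 was not called without any one of the 3-week libraries, nor Dusp23 without 3-week library 4, at limma adjusted p between 0.055 and 0.060. Controls fell as well, with limma adjusted p under 0.05, for Tcfl5, Cdca8, Dusp23, Steap4, Zfp389 and Gpr17 among these 10, and did not pass the test for Otor, Cldn2, Aldh1a7 and Gdf10. The difference between the genotypes' age changes was called for Cldn2 and Aldh1a7 but not for Otor and Gdf10.

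**Figure D1:**
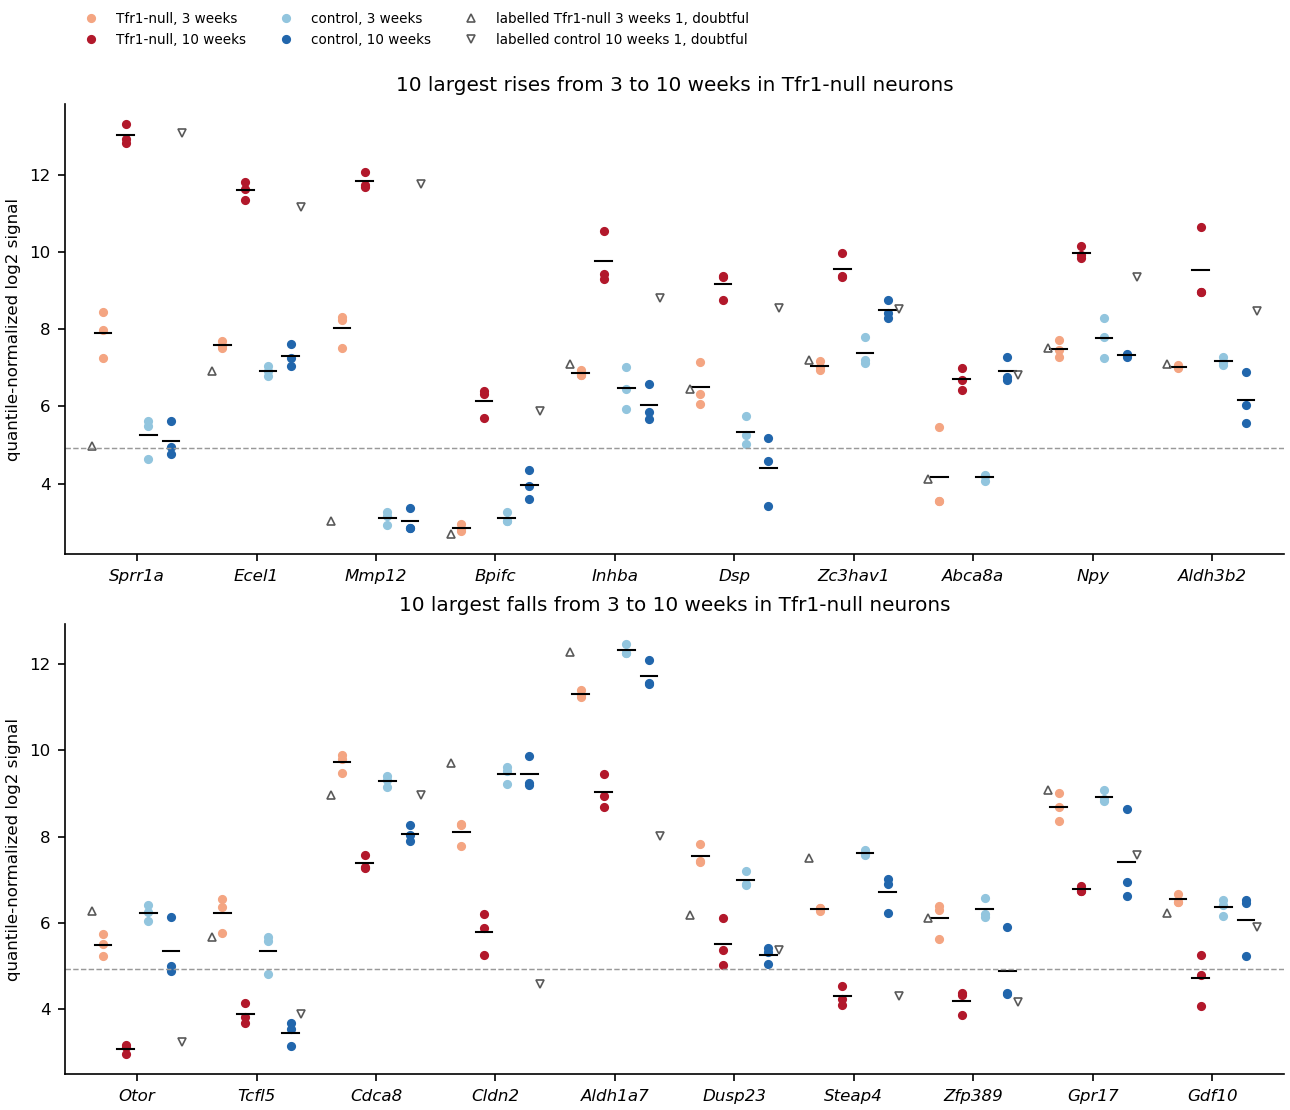
Each point is the quantile-normalized log2 signal of 1 library, with the mean of each group of 3 as a bar, for the 10 largest rises (top) and falls (bottom). The dashed line at 4.93 is the background limit, and open triangles are the libraries of doubtful label: labelled Tfr1-null 3 weeks 1 lies at 3.02 for Mmp12 with the controls, and labelled control 10 weeks 1 lies at 11.76 with the Tfr1-null libraries.

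The windows around the transcription starts of the largest rises were read for binding sequences of AP-1, the dimer that Jun forms, because Jun rose too. RefSeq windows (GRCm38.p6) of 250 bases before to 50 after a start were found for 9 of the 10 genes. The searched letters were TGANTCA, the AP-1 site, and TGACGTCA, the cyclic AMP response element, on both strands, and the motifs do not overlap each other. They were chosen with the results known. A match was found in 3 genes for AP-1 and in 0 for the second motif. These 3 are shown, each read along its gene, with matches in capitals. Sprr1a lies at chr3:92485832-92486131 on the minus strand, Mmp12 at chr9:7347124-7347423 on the plus strand for its second window, and Bpifc at chr10:86011811-86012110 on the minus strand.
Sprr1a: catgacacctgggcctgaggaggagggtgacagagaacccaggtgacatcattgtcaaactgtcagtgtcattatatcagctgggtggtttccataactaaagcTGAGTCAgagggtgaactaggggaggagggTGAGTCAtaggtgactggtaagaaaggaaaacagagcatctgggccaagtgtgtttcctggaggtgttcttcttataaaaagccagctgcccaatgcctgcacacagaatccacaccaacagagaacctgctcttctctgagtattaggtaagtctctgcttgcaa
Mmp12: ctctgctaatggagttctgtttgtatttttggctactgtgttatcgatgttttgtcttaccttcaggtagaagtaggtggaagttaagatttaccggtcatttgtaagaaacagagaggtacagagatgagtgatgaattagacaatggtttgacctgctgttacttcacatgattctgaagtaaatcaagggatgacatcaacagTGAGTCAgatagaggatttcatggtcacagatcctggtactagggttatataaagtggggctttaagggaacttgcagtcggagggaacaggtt
Bpifc: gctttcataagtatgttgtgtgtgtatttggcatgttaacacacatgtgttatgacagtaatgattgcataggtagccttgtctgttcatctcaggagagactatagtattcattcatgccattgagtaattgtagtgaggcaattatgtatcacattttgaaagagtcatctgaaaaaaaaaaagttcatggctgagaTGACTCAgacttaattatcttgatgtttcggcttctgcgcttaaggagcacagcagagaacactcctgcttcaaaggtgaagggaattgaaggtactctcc
Sprr1a holds 2 matches, and the match nearest to the start begins 116 bases before it in Sprr1a, 44 in Mmp12 and 51 in Bpifc. Of all 32851 windows of 300 bases, 7.81% hold the AP-1 letters and 1.79% the second motif. By gene, the AP-1 letters were in 8.72% of 906 called higher, 7.15% of 1427 called lower and 7.54% of all 14441 tested genes with a window. Of the 26 genes with a positive interaction (described further on) and a window, 5 held the AP-1 letters (19.2%). Sprr1a, Mmp12 and Bpifc, shown above for their matches, are among these 5, so that share largely counts the same genes again. A match is a description of letters, not a site in use.

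Genes of the damage response were among those that rose. Of 29 measured genes known from injured neurons, 12 rose (41.4%, against 6.37% of all genes) and 0 fell. The median was 0.46 log2 units, against -0.03 over all genes and -0.12 for the same list in controls. This list was chosen with earlier results of these data known, so its counts are a description. It also holds Sprr1a, Ecel1 and Npy, already named among the largest rises. Beyond these, the 12 were Sox11, Tnfrsf12a, Jun, Flrt3, Plaur, Nfil3, Gadd45a, Stmn4 and Cckbr. Sox11, a transcription factor of axon growth, gave 9.26, 8.69 and 8.66 at 3 weeks and 10.18, 10.84 and 11.04 at 10 weeks, a rise of 1.82 (SE 0.27, limma adjusted p = 0.012). Tnfrsf12a, the receptor Fn14, rose by 1.56 (SE 0.18) from 8.87 to 9.19 up to 10.37 to 10.99. Jun gave 11.03, 10.71 and 10.87 at 3 weeks and 12.23, 12.04 and 12.02 at 10 weeks. Its rise of 1.23 (SE 0.12, limma adjusted p = 0.0069) stood against -0.48 in controls.

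Other genes of that response did not pass the test. Atf3, the stress-induced partner of Jun, was already high at 3 weeks, with 11.32, 10.83 and 10.20 against 5.91 to 6.44 in controls. At 10 weeks it gave 11.64, 12.12 and 11.27, which overlap the 3-week values (0.90, SE 0.33, limma adjusted p = 0.11). Gap43, a growth cone protein, was near the top of the scale at both ages, with 13.74 to 13.76 and 13.58 to 13.69. Gal, which encodes galanin, overlapped between ages, with a difference of 0.12 (SE 0.27). The mean over the injury list was 8.89 to 8.93 in the 3-week Tfr1-null libraries and 9.69 to 9.83 at 10 weeks, against 8.41 to 8.63 in controls of both ages. Without the 3-week library 2, 3 or 4, 9, 8 and 7 genes of the list were called, all upward.

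Immediate early genes, which neurons switch on within minutes of activity or stress, rose in 6 of 21 cases and fell in 0, with a median of 0.43. The 6 make up 28.6%, against 6.37% of all genes called higher. Egr1 gave 9.42, 9.55 and 9.57 at 3 weeks and 11.58, 11.20 and 11.64 at 10 weeks, a rise of 1.96 (SE 0.14, limma adjusted p = 0.0036). Fosl2, a Fos-related partner of Jun, rose by 1.66 (SE 0.15), and Dusp1, a phosphatase that shuts off MAP kinases, by 1.14 (SE 0.12). Fosb rose by 1.51. Fos rose by 1.07 in Tfr1-null (SE 0.27) and by 1.03 in control libraries. The control differences of Egr1, Fosl2 and Dusp1 were -0.05, 0.08 and 0.19, with no call. The interaction was called for Egr1 but not for Fosl2 and Dusp1. Leaving out any one of the 3-week libraries, or 10-week library 1, gave 4 rises in the list in place of 6.

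Among genes of cell death, 4 of 24 measured p53 targets and apoptosis genes rose and 0 fell (median 0.28). Their share higher was 16.7%, against 6.37% of all genes. Hrk, a BH3-only activator of apoptosis, gave 8.87, 8.08 and 8.14 at 3 weeks and 10.17, 9.68 and 9.45 at 10 weeks. It rose by 1.40 (SE 0.27, limma adjusted p = 0.022), while the controls fell from 7.18 to 7.51 to between 6.09 and 6.43. Bcl2l11, the BH3-only protein Bim, rose by 0.60 (SE 0.14), and Apaf1, the core of the apoptosome, by 0.71 (SE 0.15). Eda2r was called but was not above background at either age. Bbc3, which encodes Puma, differed by 0.75 (SE 0.28) and Cdkn1a, the p21 inhibitor of the cell cycle, by -0.12 (SE 0.19), and neither was called. Without 3-week library 2, 3 or 4 the list had 1, 0 and 0 rises, without 10-week library 1 or 3 it had 2, and without 10-week library 2 it had 7.

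Neuropeptides and granins rose in 6 of 24 cases and fell in 0, with a median of 0.20 against -0.12 in controls. That is 25% higher, against 6.37% of all genes. Vgf, a granin-like precursor, gave 11.67, 11.78 and 11.63 at 3 weeks and 12.51, 12.48 and 12.52 at 10 weeks, a rise of 0.81 (SE 0.09, limma adjusted p = 0.0072). Cartpt, the precursor of the CART peptide, rose by 0.98 (SE 0.20) from 7.95, 8.16 and 7.95 to 8.90, 8.67 and 9.44. Its 10-week values remained below the controls of both ages, which had 9.58 to 10.59. Pam, the enzyme that amidates peptides, rose by 0.56, and Scg3, secretogranin III, by 0.38. Without any one of the 3-week libraries 3 members were called. Bdnf, a growth factor, was high in 10-week library 1 alone, with 12.17 against 9.63 and 9.59 in the other libraries of that age, and was not called.

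Identity genes of dopaminergic neurons moved the other way. Of 30 measured, 9 fell (30%, against 9.84% of all genes) and 0 rose, with a median of -0.23. Controls had 5 falls and 2 rises (median -0.12). Those control counts come from a fit of 12 libraries of both genotypes, in which Tfr1-null had 11 falls in place of 9. The 9 were the transcription factors En1, Lmx1b, Foxa1, Satb1 and Sox6, the nicotinic receptor subunit Chrna6, the potassium channel Kcnj6, the dopamine receptor Drd2 and the neurotensin receptor Ntsr1. En1 gave 12.42, 12.40 and 12.43 at 3 weeks and 11.97, 11.82 and 11.80 at 10 weeks, and fell by 0.55 (SE 0.09, limma adjusted p = 0.015). Its controls fell by 0.59, so both genotypes shared this change. Kcnj6 fell by 1.09 (SE 0.19) and Sox6, a factor of ventral tier neurons, by 1.05 (SE 0.19), beside control differences of -0.94 and -0.78. Drd2 gave 12.14, 12.39 and 12.48 at 3 weeks and 11.69, 11.95 and 11.74 at 10 weeks, whereas controls differed by 0.22 in the other direction and were not called. The interaction was not called for Drd2 either (limma adjusted p = 0.11). Foxa1 fell by 0.46 (SE 0.09) in Tfr1-null and rose by 0.31 in control libraries.

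The falls of this list depended on each 3-week library. Without library 2, 3 or 4 of that age, 0, 1 and 0 members were called, although the medians stayed between -0.28 and -0.20. With the library labelled Tfr1-null 3 weeks 1 added 10 were called. Centring on array medians gave 13 falls, and within-array ranks 6. The mean over the list was 11.44 to 11.56 at 3 weeks and 11.12 to 11.34 at 10 weeks in Tfr1-null, and 11.68 to 11.87 in controls of both ages. Sncg, gamma-synuclein, gave 11.09, 11.66 and 11.70 at 3 weeks and 10.62, 11.01 and 10.77 at 10 weeks, which missed the threshold (limma adjusted p = 0.059), against 13.24 to 13.66 in controls.

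Of 31 ion channel genes 7 fell and 1 rose, of 29 genes of synaptic vesicle release 5 fell and 1 rose, and of 28 transmitter receptor subunits 4 fell and 1 rose. The shares lower were 22.6%, 17.2% and 14.3%, against 9.84% of all genes, where falls also outnumbered rises. Kcnip3, which binds potassium channels, fell by 1.04 (SE 0.17), Kcnn3, the SK3 channel, by 0.67 (SE 0.11) and Cacna1c, an L-type calcium channel, by 0.64 (SE 0.10). The control differences of these 3 were -0.87, -0.66 and -0.69, all called. Scn4b, a sodium channel beta subunit, rose by 1.02 (SE 0.15) in Tfr1-null and by 2.00 in control libraries. Grik1, a kainate receptor subunit, gave 8.51, 8.39 and 8.47 at 3 weeks and 7.36, 7.28 and 7.47 at 10 weeks, and fell by 1.09 (SE 0.09, limma adjusted p = 0.0051), against a control difference of -0.20 that was not called. Cplx1, a complexin that clamps vesicle fusion, gave 14.02, 14.11 and 14.09 at 3 weeks and 13.24, 13.70 and 13.53 at 10 weeks, while the 6 controls lay between 14.15 and 14.24. Without 3-week library 2, 3 or 4, falls were called for 0, 2 and 0 ion channels, 0 vesicle genes each time and 1 receptor each time. Bsn, the active zone protein Bassoon, fell by 0.89 (SE 0.15), beside -0.96 in controls.

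Growth and guidance genes went both ways. Of 30 genes of young neurons and axon growth, 4 rose and 4 fell, 13.3% each, against 6.37% and 9.84% of all genes. Cd24a, a surface glycoprotein of young neurons, fell by 1.40 (SE 0.17) and Marcksl1, an actin regulator, by 0.92 (SE 0.11), while Stmn4, a stathmin of microtubules, rose by 0.71 (SE 0.09). In controls Marcksl1 differed by -0.51 and was called, and Cd24a and Stmn4 were not called. Of 37 guidance and adhesion genes 5 rose and 5 fell, 13.5% each. Efnb2, an ephrin, rose by 1.14 (SE 0.14) and Sema3c, a secreted semaphorin, by 1.18 (SE 0.15), whereas Plxna1, a semaphorin receptor, fell by 0.84 (SE 0.11) beside -0.90 in controls. Efnb2 was called in controls too, at 0.66, and Sema3c was not. Of 26 cell cycle genes 4 fell (15.4%) and 0 rose, led by Aurka, a mitotic kinase, at -1.29 (SE 0.22), and 0 were called without any one of the 3-week libraries. Without 3-week library 2, 3 or 4 the young neuron list had 2, 1 and 0 rises and 2 falls each time, and the guidance list 3, 4 and 2 rises and 1, 3 and 0 falls. Of 19 cytoskeleton genes, Map2 and Nptx1 (10.5%) rose by 0.70 and 0.53 and Ina, alpha-internexin (5.26%), fell by 0.65 beside -0.70 in controls. That list had 0 rises and 0, 1 and 0 falls without 3-week library 2, 3 or 4.

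Targets of hypoxia-inducible factor, which acts when oxygen or iron runs short, had shares of age calls near those of all genes. Of 30 measured, 2 rose and 2 were lower with age in Tfr1-null, with a median of -0.04. That is 6.67% each, against 6.37% higher and 9.84% lower among all genes. At 3 weeks 17 of the 30 were already higher than in controls, where 0.633% of all genes were called higher, and at 10 weeks 20 were, where 4.76% were. The mean over the list was 10.68 to 10.80 at 3 weeks and 10.72 to 10.86 at 10 weeks in Tfr1-null, and 9.75 to 9.83 in controls of both ages. Hk2, the inducible hexokinase, gave 10.86, 9.66 and 10.59 at 3 weeks and 9.89, 10.83 and 10.40 at 10 weeks, against 5.19 to 6.94 in controls. Bnip3, a mitophagy receptor, gave 13.42 to 13.47 and 13.27 to 13.45, and Vegfa, the angiogenic growth factor, 10.28 to 10.45 and 9.82 to 10.59. In these 3 genes the ages overlapped and the genotypes did not. Tfrc, whose values had a part in choosing the libraries, is a member of this list. It is counted in the list means and in the 17 and the 20, where it is not a test. It is also one of the 2 lower genes. The other was Ak4, an adenylate kinase, which fell by 0.46 (SE 0.10), and the 2 rises were Stc2 and Ndrg1. Without 3-week library 2, 3 or 4 the list had 1, 0 and 0 rises and 0 falls.

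Of 20 glycolysis genes only Hk1 (5%) was called with age, at 0.54 (SE 0.12), and 0 were called when any 1 of the 6 libraries was left out, by ranks or with array weights. Of 39 genes of the integrated stress response, which cells start when charged tRNA or heme runs short, 5 rose and 0 fell, with a median of 0.21. These 5 are 12.8% of the list, against 6.37% of all genes. Slc7a3, an arginine transporter, rose by 1.07 (SE 0.11), Atf5 by 0.93 (SE 0.17), Phgdh and Psat1 of serine synthesis by 0.70 and 0.50, and Stc2 by 0.91 (SE 0.19). Ddit3, which encodes CHOP, gave 12.67, 12.01 and 11.76 at 3 weeks and 12.29, 12.40 and 12.19 at 10 weeks, above the 10.37 to 10.66 of controls, with no call for age. Chac1, a glutathione-degrading enzyme, gave 10.70 to 11.08 and 10.61 to 11.30, which overlap. Without 3-week library 2, 3 or 4 the list had 2, 1 and 1 rises. Of 23 chaperones of the endoplasmic reticulum, Derl3 and Creld2 fell by 1.69 and 0.94, and 3-week library 2 was the highest for both, while Xbp1 rose by 0.52. The shares of this list, 8.7% lower and 4.35% higher, are near the 9.84% and 6.37% of all genes.

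Of 34 complex I genes 3 fell and 0 rose (median -0.16, controls 0.01), and of 39 genes of complexes II to V 4 fell and 1 rose (median -0.15, controls 0.05). Ndufb2 gave 12.27, 12.33 and 12.16 at 3 weeks and 11.57, 11.75 and 11.70 at 10 weeks, and fell by 0.57 (SE 0.10, limma adjusted p = 0.016). Uqcr11 of complex III fell by 0.52 (SE 0.12), Sdhc of complex II by 0.48 (SE 0.11) and Atp5g1 of the ATP synthase by 0.47 (SE 0.11), and none of the 4 was called in controls. Nor was the interaction called for any of the 4. The shares called, 8.82% and 10.3% lower, are near the 9.84% of all genes, and without any one of the 3-week libraries 0 were called lower in either list. Cox7c, a subunit of cytochrome oxidase, was not above background at 3 weeks and rose by at least 0.45. Of 22 genes of the tricarboxylic acid cycle 2 fell, Sdhc and Idh3b, a share of 9.09%, and 0 were called without any one of the 3-week libraries.

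Among 30 iron genes 2 rose and 3 were lower, 1 of them Tfrc, which had a part in choosing the libraries and is not tested. Both shares, 6.67% higher and 10% lower, are near the 6.37% and 9.84% of all genes. Cp, ceruloplasmin, gave 6.23, 6.27 and 6.23 at 3 weeks and 7.15, 6.90 and 7.16 at 10 weeks (0.83, SE 0.10), and Slc25a28, the mitochondrial iron carrier mitoferrin 2, rose by 0.56 (SE 0.11). The other lower genes were Steap4 and Aco1, the iron regulatory protein 1, which fell by 0.35. Without 3-week library 2, 3 or 4 the list had 1, 1 and 0 rises and 1 fall, Steap4, each time. Slc11a2, the iron importer DMT1, gave 11.01 to 11.20 at 3 weeks and 10.77 to 10.99 at 10 weeks, above 9.70 to 10.29 in controls, with no call for age. Of 26 genes of redox and ferroptosis defence 4 rose and 2 fell (15.4% and 7.69%), and 2, 2 and 1 rose without 3-week library 2, 3 or 4. Gstm1, a glutathione transferase, rose by 1.68 (SE 0.14) beside 0.99 in controls, and Nqo1, a quinone reductase, by 0.92 (SE 0.13) from 6.54 to 6.96 up to 7.64 to 7.73, below the 8.68 to 9.33 of controls. Aifm2, the ferroptosis suppressor FSP1, fell by 0.84 (SE 0.10), beside -0.63 in controls, where it was called too. Hmox1, heme oxygenase, overlapped between ages, with 9.52 to 9.86 and 9.52 to 10.97.

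Other lists changed in controls too or hold genes of hormone and daily rhythm. Of 20 sterol synthesis genes 5 fell in Tfr1-null (median -0.31) and 10 in control libraries (median -0.39), among them Dhcr7, Sc5d, Pmvk and Hsd17b7 in both. In Tfr1-null that is 25%, against 9.84% of all genes lower. The control count comes from the fit of 12 libraries, in which Tfr1-null had 6 falls and 7.62% of all genes were lower in controls. Without a 3-week library, or without 10-week library 1, 0 of the 5 were called, and without 10-week library 3 there was 1. Of 31 cytosolic ribosomal protein genes 3 rose in Tfr1-null (9.68%, median 0.14) and 6 in controls (median 0.22). Over all genes 6.37% and 6.18% were called higher. Of 15 glucocorticoid-responsive genes 6 rose and 1 fell, led by Per1, Hif3a and Sgk1, at 1.16, 0.55 and 1.11, with Tsc22d3 falling by 0.81. Shares were 40% higher and 6.67% lower, against 6.37% and 9.84% of all genes. Leaving out any 3-week library ended all 7 of these calls, and leaving out 10-week library 3 gave 2 rises and 1 fall. Of 17 clock genes Per1, Per2 and Nfil3 rose (17.6%) and Clock fell (5.88%), and 0 were called without any one of the 3-week libraries. Of 33 proteasome genes 0 were called by limma and 6 had an unadjusted p under 0.05, the smallest adjusted p being 0.052 for Psmd3.

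**Figure D2:**
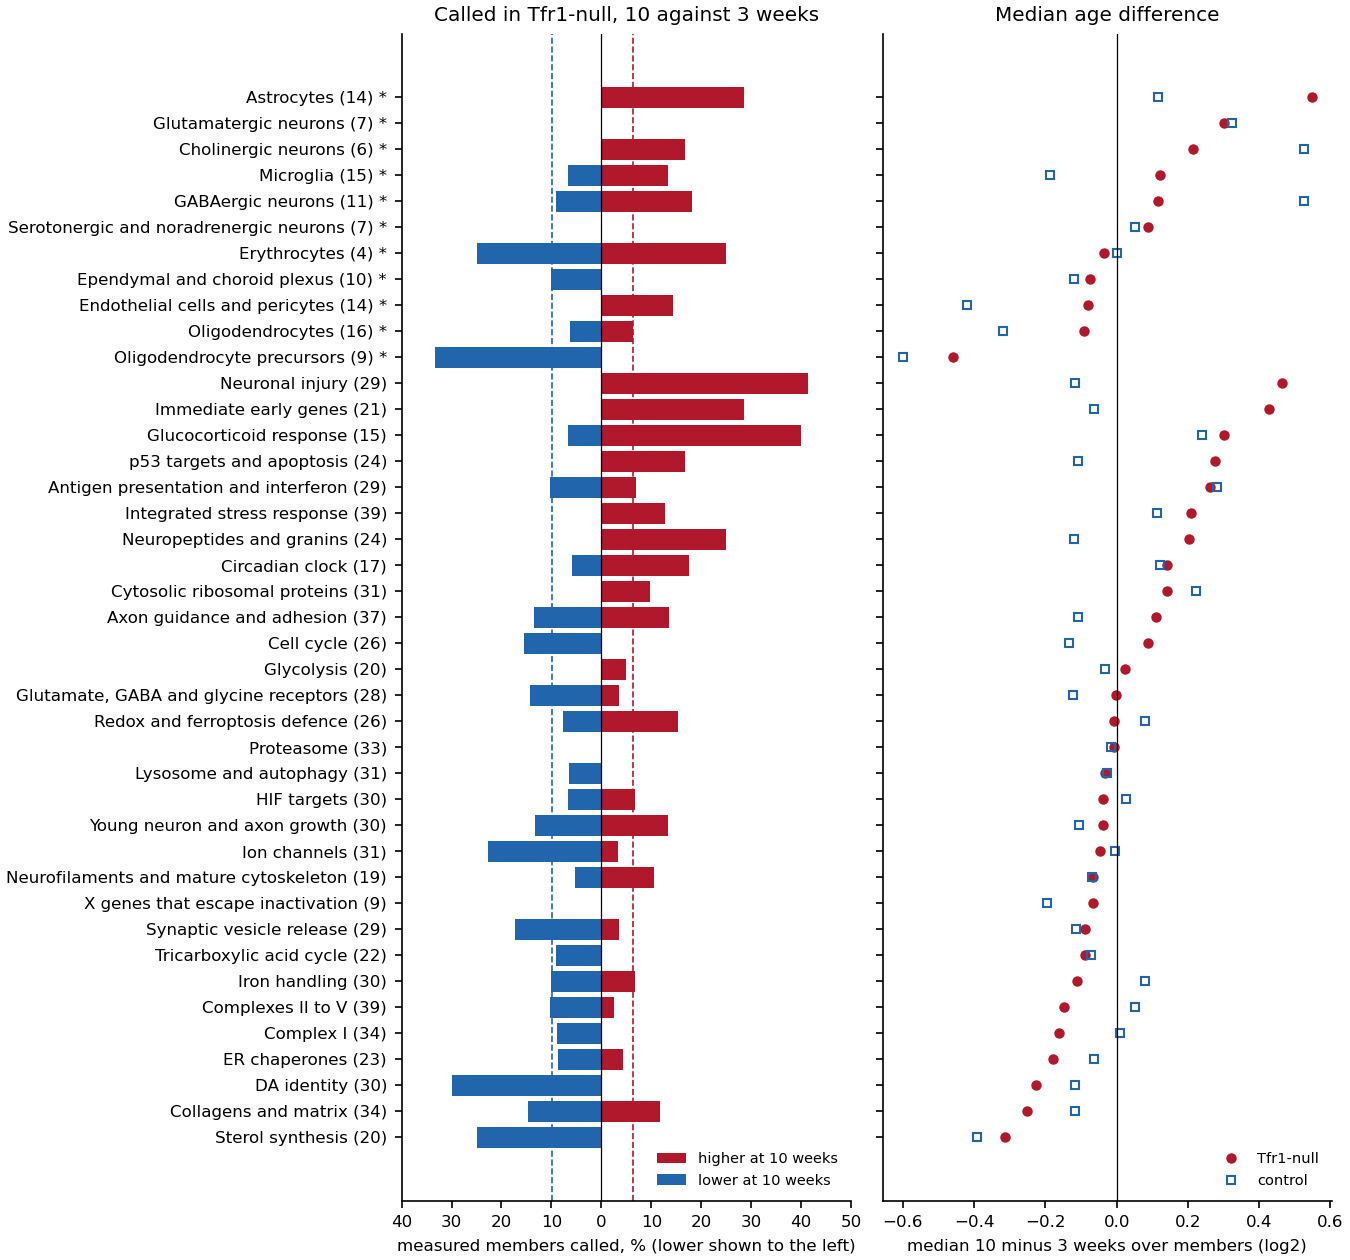
The left panel gives, for each gene list with its number of measured genes, the percent of members called higher (right of 0) and lower (left of 0) at 10 weeks in Tfr1-null neurons, with dashed lines at the 6.37% and 9.84% of all genes. The right panel gives the median log2 difference of 10 minus 3 weeks in Tfr1-null (circles) and control (squares) libraries, and asterisks mark lists of other cell types. Neuronal injury has 12 of 29 higher and a median of 0.46 against -0.12.

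Markers of other cells moved with age as well, and their part in the results above was not tested. Of 14 astrocyte markers 4 rose (28.6%, against 6.37% of all genes) and 0 fell. In controls 3 of the 14 rose, where 6.18% of all genes did, and 0 fell. The mean over the list was 9.27 to 9.57 at 3 weeks and 9.64 to 10.05 at 10 weeks in Tfr1-null. Controls had 9.39 to 9.50 and 9.38 to 9.90. The 4 in Tfr1-null were Sox9, Fgfr3, Gjb6 and Ntsr2, and without any one of the 3-week libraries 0 were called, against 2, 6 and 2 without 10-week library 1, 2 or 3. Fgfr3 and Gjb6 rose by 0.78 and 1.03 and were called in controls too, at 0.82 and 0.81. The defining Gfap, Aqp4 and Slc1a2 overlapped between ages, with differences of 0.57, -0.18 and 0.15. Of 15 microglia markers Cd68 and C1qc rose (13.3%) and Fcrls fell (6.67%). The list mean was 7.39 to 7.56 at 3 weeks and 7.60 to 7.93 at 10 weeks, against 7.02 to 7.55 in controls. Cd68, a lysosomal protein of phagocytes, gave 8.04, 7.82 and 7.84 at 3 weeks and 10.14, 10.26 and 9.82 at 10 weeks, a rise of 2.17 (SE 0.14, limma adjusted p = 0.0027), while the controls had 5.81 to 6.34. The microglial Cx3cr1, P2ry12, Aif1 and Tmem119 stayed between 5.66 and 7.56 in these 6 libraries and overlapped between ages. Csf1r and C1qa were highest in 10-week library 1, at 11.62 and 8.38, and neither was called.

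Of 9 markers of oligodendrocyte precursors 3 fell, Gpr17, Tnr and Cspg4, beside 4 in controls. In Tfr1-null that is 33.3%, against 9.84% of all genes lower, and in controls 7.62% of all genes were lower. The list mean went from 8.73 to 9.09 at 3 weeks to between 8.09 and 8.81 at 10 weeks. Without any one of the 3-week libraries 1 of these precursor markers was called. Of 16 oligodendrocyte markers Apod rose and Ugt8a fell, with means of 9.83 to 10.21 and 9.50 to 10.24. Endothelial and pericyte markers had 2 rises of 14, Flt1 and Vtn, with list means of 7.30 to 7.45 and 7.15 to 7.39. Of the 4 erythrocyte genes measured Alas2 fell by 1.59 beside -1.01 in controls and Hba-a1 rose by 0.44. Among 11 GABAergic markers Gad2 and Gata3 rose by 0.92 and 0.58 and Dlx1, not above background at 10 weeks, was called lower. The shares higher were 14.3% for the endothelial and 18.2% for the GABAergic list. Both lists had 0 calls without any one of the 3-week libraries. Glutamatergic, serotonergic and noradrenergic markers had 0 calls of 7 and 7 by limma, with smallest adjusted p of 0.084 and 0.14 and with 2 and 1 at an unadjusted p under 0.05, and cholinergic markers 1 rise of 6, Slc5a7. Of 10 ependymal and choroid plexus markers Kl fell by 0.45.

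**Figure D3:**
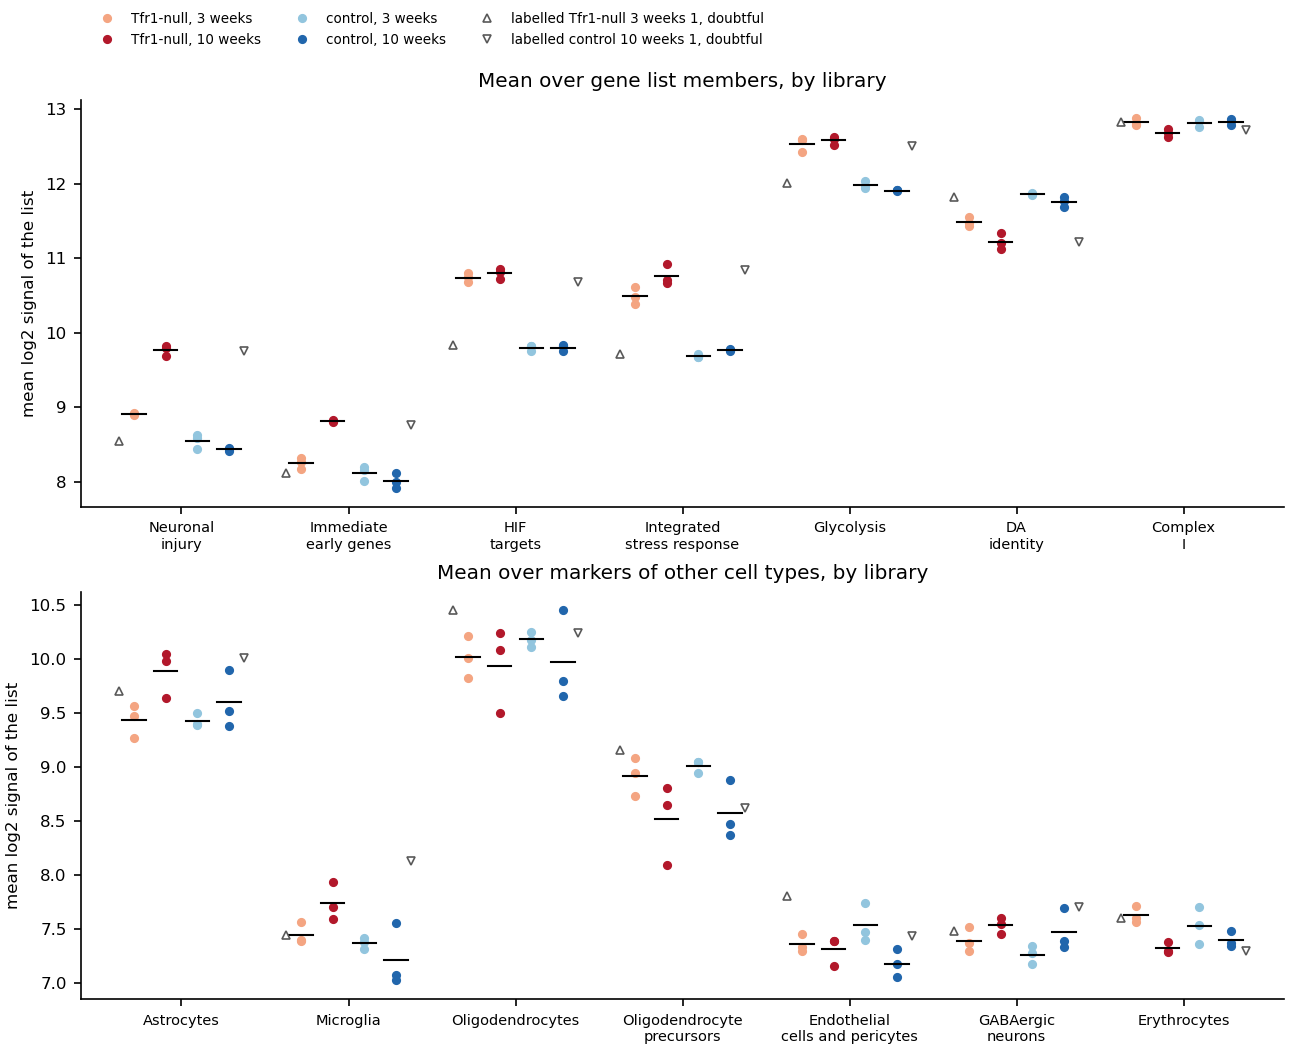
Each point is the mean log2 signal of a gene list in 1 library, with the mean of each group of 3 as a bar and open triangles for the libraries of doubtful label. In Tfr1-null libraries the injury list goes from 8.89 to 8.93 at 3 weeks up to 9.69 to 9.83 at 10 weeks, the HIF target list stays at 10.68 to 10.86, and the astrocyte markers (bottom) go from 9.27 to 9.57 up to 9.64 to 10.05.

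Controls were used to ask which of these age changes differed between genotypes. With 6 controls, 1123 genes (6.18%) were higher and 1386 (7.62%) lower at 10 weeks by limma, and without control 1, 2 or 3 of 3 weeks the total of 2509 became 1142, 1159 and 1288. Of the 1158 genes higher in Tfr1-null, 503 were higher in controls too, which is 43.4% of the first list and 44.8% of the second. Of the 1788 lower genes 682 were shared, 38.1% and 49.2%. Opposite calls were made for 15 genes. The age differences of the 2 genotypes, which share no library, had a correlation of 0.51 across all genes, and genes are not independent replicates.

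The difference between the 2 age differences, the interaction, was called by limma for 55 genes, 35 positive (0.193%) and 20 negative (0.11%), where 2227 had an unadjusted p under 0.05. In the positive genes the difference of 10 minus 3 weeks was larger, or less negative, in Tfr1-null than in controls. The largest were Sprr1a at 5.26 (SE 0.48, limma adjusted p = 0.0016), Mmp12 at 3.90 (SE 0.31), Ecel1 at 3.63 (SE 0.23), Dsp at 3.60 (SE 0.59), Aldh3b2 at 3.50 (SE 0.59) and Inhba at 3.34 (SE 0.51). For Sprr1a and Ecel1 the control differences were -0.14 and 0.39, and neither was called. For Mmp12 no control was above background at either age, so its interaction has no measured control difference behind it. Npy, Cd44, Jun, Egr1, Cd68, Hrk and Stmn4 were called as well. Cd44, the hyaluronan receptor, gave 5.12, 5.19 and 5.41 at 3 weeks and 7.90, 7.14 and 7.25 at 10 weeks in Tfr1-null, and 5.76 to 6.44 and then 5.37 to 5.72 in controls. Atf3 was called too, and its controls went from 5.91 to 6.44 down to 4.11 to 4.50, which is not above background.

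The largest negative interactions were Cldn2 at -2.31 (SE 0.36, limma adjusted p = 0.032), Derl3 at -1.97, Aldh1a7 at -1.70, Fgf20 at -1.66, Gstt2 at -1.41 and Nudt16 at -1.29. Fgf20, a fibroblast growth factor that supports dopaminergic neurons, gave 8.56, 8.66 and 8.28 at 3 weeks and 6.89, 7.45 and 6.68 at 10 weeks, while the controls stayed between 8.73 and 9.16. Gstt2, a glutathione transferase, and Nudt16, a nucleotide hydrolase, changed little in Tfr1-null (-0.34 and 0.17, neither called) and rose in controls by 1.08 and 1.46. Nudt16 had a second probe set with a Tfr1-null difference of -0.23. Foxa1, Grik1 and Kcns3, a potassium channel subunit, were also called negative.

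Of the 55 genes 49 were among the 2946 called with age in Tfr1-null, 53 differed between genotypes at 10 weeks and 14 at 3 weeks. By list, 6 of the 29 injury genes, 3 of 21 immediate early genes and 2 of 24 neuropeptide genes had a positive interaction. Over all genes the share was 0.193%. The lists overlap, since Jun is in the injury and immediate early lists and Npy in the injury and neuropeptide lists. They were chosen with earlier results of these data known, so these counts are a description. No member of the complex I, sterol, HIF or ribosomal lists was called for the interaction, and their median interactions were -0.19, 0.00, -0.05 and -0.05. The median over all genes was -0.04. With 0.193% of all genes called positive and 0.11% negative, 0 calls in lists of this size is near the share of all genes.

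The interaction rested on leaving out the library labelled control 10 weeks 1. That library had 13.08 for Sprr1a, 11.17 for Ecel1 and 11.76 for Mmp12, all with the 10-week Tfr1-null libraries, and its Tfrc value was the reason for leaving it out. With it 0 genes were called by limma, and 1470 had an unadjusted p under 0.05, or 1364 when the library labelled Tfr1-null 3 weeks 1 was in too. With it alone the interaction was 3.27 for Sprr1a, 2.66 for Ecel1 and -1.09 for Cldn2, at limma adjusted p of 0.73, 0.59 and 0.85. Without 1 of the other libraries the 55 became 17, 12 and 11 (3-week Tfr1-null 2, 3 and 4), 106 (10-week Tfr1-null 2), 10, 11 and 23 (3-week control 1, 2 and 3) and 89 (10-week control 4). It was 42, 38, 55 and 54 without the others (10-week Tfr1-null 1 and 3, 10-week control 2 and 3). With the library labelled Tfr1-null 3 weeks 1 added 48 were called, of which 38 were among the 55.

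**Figure D4:**
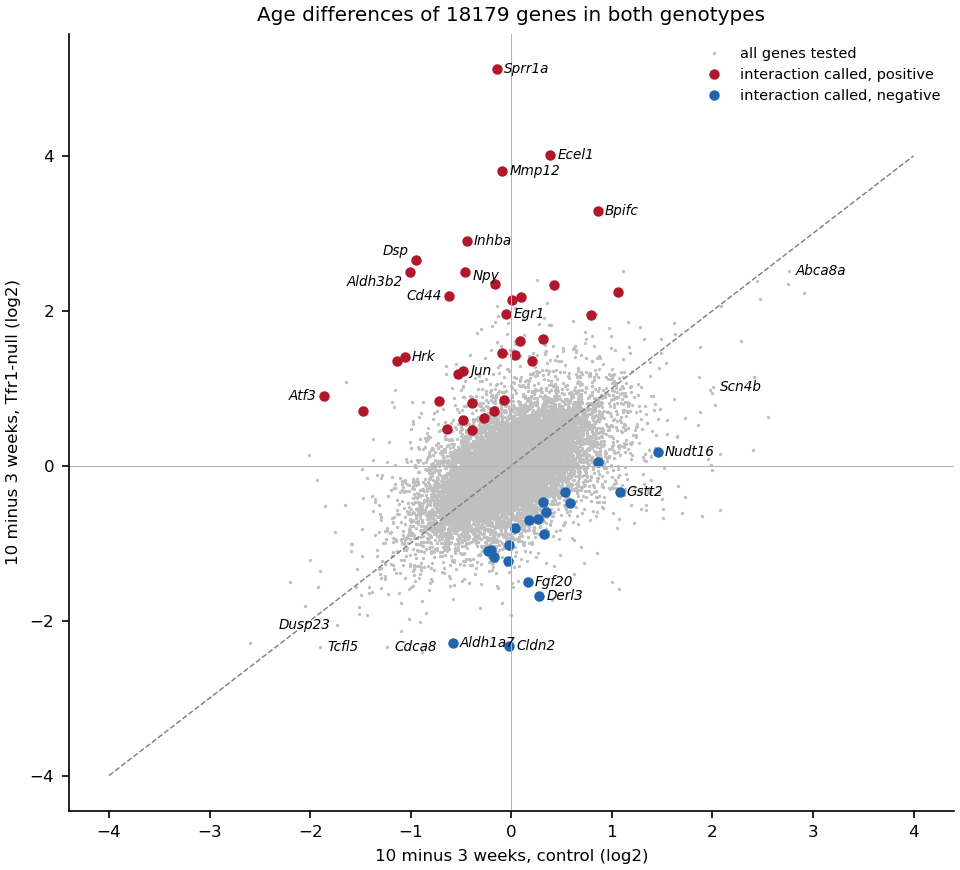
Each dot is 1 of 18179 genes, placed by its log2 difference of 10 minus 3 weeks in control (horizontal) and Tfr1-null (vertical) libraries, and the dashed line marks equal differences. The 35 positive (red) and 20 negative (blue) interactions lie off that line, with Sprr1a at -0.14 and 5.12, while Dusp23 lies near it at -1.73 and -2.06. Fitted values are plotted, signals below background included.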

How the data were processed

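Affymetrix mouse genome arrays, 14 in all, were hybridised with RiboTag RNA, of which 50 ng was amplified with a NuGEN Ovation kit, per the labels' protocols. The deposited log2 values were made by the authors with RMA in Partek 6.5, per the submitters' processing notes. The separate scaling of the ages was read from the array medians. Here all arrays were quantile mapped to the mean quantiles of the 6 Tfr1-null arrays. A gene takes its brightest probe set, and its symbol comes from the platform annotation: of 45101 probe sets 34958 have 1 symbol, 932 several and 9211 none, and 29 of X-inactivation or Y-linked genes were left out. limma 3.58.1 (R 4.3.3, lmFit and eBayes) was fitted on 6 libraries, 3 per age, for the Tfr1-null age difference, and on 12 libraries in 4 groups for controls and the interaction. Benjamini-Hochberg adjustment ran over all 18179 genes, and calls have an adjusted p under 0.05. The number of arrays limits precision. Where a gene is under background in every library of a group, the difference is a bound.

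Named genes are the 10 largest rises and 10 largest falls with ages that do not overlap, the 6 largest interactions per direction, and up to 4 called members per list, with further examples chosen after their values were seen. The members and the gene lists were chosen with earlier results of these data known. Alternatives were median centring, within-array ranks, the doubtful libraries, a filter on dim genes, the mean of probe sets, a replicate block, array weights and each library left out. The fits were tested on simulated data.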

Additional observations from a re-analysis of the deposited data

Results flagged for a closer look

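Among the 4 libraries labelled Tfr1-null at 3 weeks, library 1 stood apart from the other 3 in 3 of 24 genes examined with Dixon's test. The 24 were picked from calls made without library 1, which favours genes where the other 3 lie close together. The usual rate of about 1 in 20 flagged by chance therefore does not apply to them. Its signal was 3.02 for Mmp12 (others 7.52 to 8.31), 12.28 for Aldh1a7 (others 11.23 to 11.40) and 7.50 for Steap4 (others 6.27 to 6.35). The 3-week controls had 2.94 to 3.26 for Mmp12, 12.25 to 12.46 for Aldh1a7 and 7.56 to 7.68 for Steap4. Its own Tfrc values, which had a part in leaving it out, were not tested.

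The age difference itself differed between genotypes, by limma's interaction term, in 12 named genes. It was larger in Tfr1-null than in control libraries for Sprr1a (5.263), Mmp12 (3.898), Ecel1 (3.629), Dsp (3.598), Aldh3b2 (3.504) and Inhba (3.342). It was lower for Cldn2 (-2.308), Derl3 (-1.965), Aldh1a7 (-1.702), Fgf20 (-1.664), Gstt2 (-1.414) and Nudt16 (-1.286). No control was above background for Mmp12, so its value is not a measured difference between 2 age changes. The limma adjusted p lay between 0.00013 and 0.044, and all 12 missed the threshold once the library labelled control 10 weeks 1 was added.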

How the results depend on the processing

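The count of Tfr1-null age calls (2946) stayed within 1.5 times under median centring, ranks, the added 3-week library, the 12-library fit, the filter on dim genes, probe set means and array weights, except that median centring gave 3189 lower genes in place of 1788. Leaving out 1 library gave 324 to 2807 calls, 138 to 1157 higher and 186 to 1650 lower. For control age the 2509 calls became 1142 to 2789, and for the interaction the 55 became 10 to 106, with 10 to 55 positive and 0 to 58 negative. Within-array ranks gave 22 positive interactions in place of 35. With the library labelled control 10 weeks 1, an alternative chosen after seeing the data, and with all 14 libraries as labelled, the interaction had 0 calls, 0 positive and 0 negative.

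With the replicate number as a replicate block, limma called 0 genes for Tfr1-null age, 0 higher and 0 lower (4090 at an unadjusted p under 0.05), 1456 for control age and 3 for the interaction, 3 positive and 0 negative. Same-numbered libraries of different groups share only a number: the correlation of their deviations was -0.08 to 0.16 over 14 pairs, 2 of them over 0.1. The block leaves few residual degrees of freedom in the 6-library fit.

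Of the 20 genes with the largest age changes, 0 were called with the block, 16 to 20 when 1 library was left out and 20 under each other setting. Of the 12 interaction genes, 3 to 11 were called when 1 library was left out, 5 by ranks, 2 with the block, 7 with the added 3-week library, 9 with array weights or probe set means, 10 under median centring and 12 without dim genes. None of the called values of these 20 and 12 genes changed sign in these settings. Signals near background and 3 arrays per group limit these data.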

Other observations

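Of 34 genes of collagens and matrix 4 rose and 5 fell, 11.8% and 14.7%, against 6.37% and 9.84% of all genes. Beside Mmp12 the rises were Timp3, an inhibitor of metalloproteases, by 1.18, Dcn, decorin, by 0.76, and Col18a1 by 0.69. The falls included Col25a1, Col1a1, Nid1 and Col5a2, at -0.98, -0.88, -0.78 and -0.75. Without any one of the 3-week libraries 1 member was called.

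Of 29 genes of antigen presentation and the interferon response 2 rose and 3 fell in Tfr1-null, 6.9% and 10.3%, and 5 rose and 4 fell in control libraries. Over all genes 6.37% rose and 9.84% fell in Tfr1-null, and 6.18% rose and 7.62% fell in controls. Ifit1, an interferon-induced RNA-binding protein, was not above background at 3 weeks and rose by at least 1.26. Nlrc5, which drives MHC class I genes, was not above background at 10 weeks and fell by at least 0.60. Of 31 lysosome and autophagy genes Atg7 and Map1lc3b fell by 0.63 and 0.51, a share of 6.45%, and 0 rose. Without any one of the 3-week libraries 0 rose and 1 fell in the interferon list and 0 were called in the lysosome list. Rpl12, Rpl37 and Rps14 of the ribosome rose in both genotypes. Rpl12 was not above background in Tfr1-null at 3 weeks and rose there by at least 1.32, and Rps14 rose by 0.45 in Tfr1-null and 0.37 in control libraries.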
